A study of Mus musculus with 9 samples.

Results

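The genes described here are 9 factors of the step at which a dividing progenitor becomes a basal progenitor or a neuron: Insm1, Gadd45g, Btg2, Nhlh1, Nhlh2, Cbfa2t2, Cbfa2t3, Tcf4 and Tcf12. They were chosen by symbol, and all 9 of 9 were found among the 48526 Ensembl genes of the deposited table. Expression was measured by RNA sequencing of mouse medial ganglionic eminence (MGE) at embryonic day 14.5, the ventral forebrain region that gives rise to many cortical interneurons. All 9 libraries come from C57BL/6 embryos with Nkx2.1-cre and the Rosa26-YFP reporter. The 5 knockout libraries also carry Ctnnb1fl/fl, so that both copies of the beta-catenin gene can be deleted in cells with a history of Cre; of the 4 control libraries, replicates 1 to 3 carry no floxed allele and replicate 4 carries Ctnnb1fl/wt. The Cre acts only in cells that express or once expressed the Nkx2-1 driver, and the sources used here do not say whether a library is 1 embryo, a pool or sorted cells. The p-values thus reflect spread among these libraries, some of which may be technical.

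Progenitors of the ventricular zone commit to neurogenesis through proneural factors of the basic helix-loop-helix (bHLH) class, which bind DNA as dimers with the E proteins TCF3, TCF4 and TCF12 at E-boxes, sites of the form CANNTG. Insm1 (a zinc finger repressor of basal progenitors), Gadd45g (a growth arrest factor) and Btg2 (an antiproliferative gene of progenitors about to make neurons) are known to come on in that window. Nhlh1 and Nhlh2 encode bHLH factors of newborn neurons. Cbfa2t2 and Cbfa2t3 encode corepressors of the ETO family that bind E proteins and proneural factors and recruit histone deacetylases.

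The libraries held 5120585 to 5569444 counted reads, so depth was alike in the groups. Ctnnb1 was 9828 ± 197 normalized read counts (SD) over the 4 controls and 6789 ± 828 over the 5 knockouts, with no overlap (log2 fold change -0.54, SE 0.0960, adjusted p = 0.000811). The genes of MGE and GABAergic cells were present in every library, with a summed level of 8245 to 14828 in control and 14223 to 16879 in knockout over 6 genes; 4 of the 6 rose (median log2 fold change over the list 0.87), and Nkx2-1 itself was at -0.36 and did not pass (adjusted p = 0.0706). In the same libraries 4 proliferation markers summed to 17866 to 19499 in control and 7102 to 14174 in knockout, 6 ventricular zone markers to 16687 to 22369.8 and 10346 to 13061, and 5 neuron markers to 13213 to 16879.9 and 24164 to 30459. All 4 proliferation markers and 4 of the 6 ventricular zone markers fell, and all 5 neuron markers rose. In bulk samples fewer cells of a type and less RNA per cell cannot be told apart, and the part of these marker shifts in the results below was not tested. Control replicate 1 stood apart on 7 dorsal telencephalon genes (summed level 2355, where controls 2 to 4 had 39.9 to 203 and the knockouts 125 to 469) and on 5 choroid plexus genes (2928 against 162 to 361 and 151 to 719), of which Folr1 and Kl were at 0 in at least 1 library. No measured gene of either list passed, nor did any microglia (summed level 203 to 294 in control, 134 to 243 in knockout), endothelium (919.8 to 1251, 1099 to 1321) or blood gene (1900.0 to 6782, 2592 to 6814), while 1 of 4 oligodendrocyte precursor genes rose (205 to 287, 230.5 to 408).

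Across the 13780 genes tested, 34.5% differed between the groups (limma, adjusted p under 0.05), 17.2% higher and 17.3% lower in knockout. Of the 9 factors, 4 fell (Insm1, Gadd45g, Btg2 and Cbfa2t2), 2 rose (Cbfa2t3 and Tcf4) and 3 did not pass (Nhlh1, Nhlh2 and Tcf12). The groups did not overlap for those same 6 genes, which compares with 29.1% of all genes tested, 14.5% with knockout higher and 14.6% with knockout lower. The median log2 fold change was -0.25 over the 9 factors and -0.01 over all genes tested. The median over the 9 factors is the value of Nhlh1, whose 95% confidence interval was -2.25 to 1.75 and whose sign depended on the libraries. It thus shows no shift of the 9 factors as a set. A log2 fold change is the knockout mean minus the control mean of log2(normalized count + 1). Per kilobase of annotated exon, and leaving aside Tcf4 and Tcf12 with their many alternative exons, the control means ran from 934 normalized counts for Insm1 through 438 for Gadd45g and 228 for Btg2 to 55.0 for Cbfa2t2, 46.8 for Cbfa2t3, 13.1 for Nhlh1 and 7.60 for Nhlh2.

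**Figure D1:**
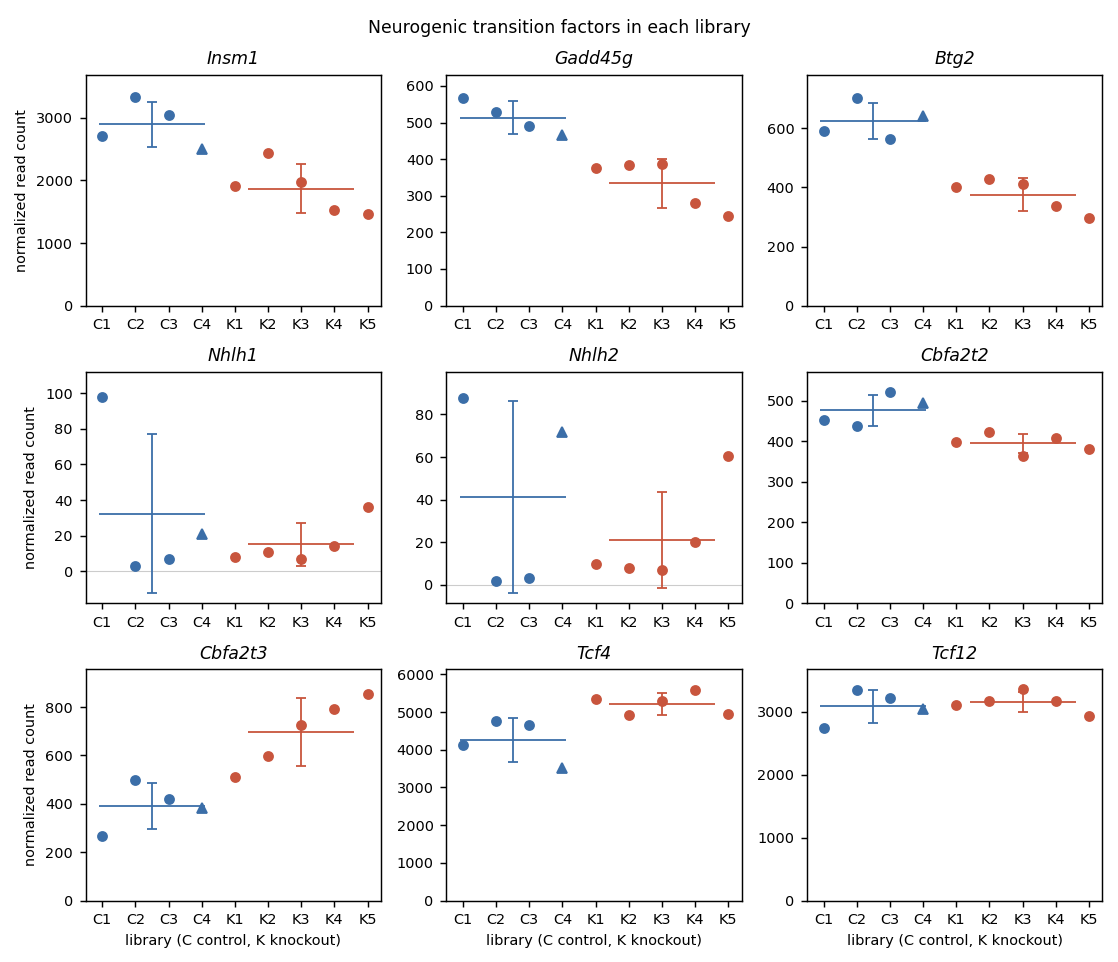
Normalized read count (vertical axis) of each of the 9 factors in each library (horizontal axis; C control, K knockout), with group means and SDs; the triangle is the heterozygous control replicate 4. Insm1, Gadd45g, Btg2 and Cbfa2t2 lie lower in every knockout than in every control, Cbfa2t3 and Tcf4 lie higher, and the groups overlap for Nhlh1, Nhlh2 and Tcf12.

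Insm1, Gadd45g and Btg2, the genes of the progenitor that is about to leave the cycle, fell together in knockout to between 60.0% and 65.1% of the control mean. Insm1 (chromosome 2, 146221921 to 146225020, mm10, a protein-coding gene whose annotated exons cover its whole span) had normalized read counts of 2714, 3326, 3039.6 and 2499 in control replicates 1 to 4 and of 1916, 2437, 1972, 1527 and 1468 in knockout replicates 1 to 5. Every knockout lay below every control, though the highest knockout, replicate 2, came close to the lowest control, the heterozygous replicate 4. Its mean went from 2895 ± 364 to 1864 ± 391, which is -0.65 on the log2 scale (SE 0.140, adjusted p = 0.00327). The cytoskeletal gene Lima1 and the centriole gene Tedc1 had the most similar deviations from the group means over the 9 libraries (Pearson r = 0.97 and 0.95, the highest of 9598 genes, given as a description).

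Gadd45g (chromosome 13, 51846678 to 51848468, protein-coding), a stress and differentiation gene whose product binds cell cycle kinases and a MAP kinase kinase kinase, was at 568, 527, 491 and 466 in the controls and at 377, 385, 386, 280.3 and 244 in the knockouts. The heterozygous control was the lowest control, and knockout replicates 4 and 5 were the lowest of all 9 libraries. The mean went from 513 ± 44.3 (SD, n = 4) to 334 ± 67.3 (SD, n = 5), or -0.64 as a log2 fold change (SE 0.138, adjusted p = 0.00308). Of its paralogs, Gadd45a was low in both groups (20.8 ± 6.12 and 20.1 ± 4.23, log2 fold change -0.04, 95% confidence interval -0.58 to 0.51) and Gadd45b was under the filter of 10 (3.83 to 17.1 normalized counts). Per kilobase of annotated exon, Gadd45g made up 94.3% to 97.04% of the family in control and 90.6% to 96.7% in knockout. The proteasome gene Psma3 and the histone variant gene H2afv were most like it (r = 0.99 and 0.98).

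Btg2 (chromosome 1, 134075170 to 134079120, protein-coding) was at 592, 704, 565 and 642 in the controls and at 401, 429.8, 411, 337 and 298 in the knockouts. Every knockout lay below every control. The highest knockout stood at 68.7% of the control mean and the lowest at 47.7%. The mean went from 626 ± 61.2 to 375 ± 55.5, or -0.74 as a log2 fold change (SE 0.116, adjusted p = 0.000372). Btg1, the closest paralog and also an antiproliferative gene, rose from 398 ± 34.4 to 558 ± 68.5 (log2 fold change 0.48, SE 0.103, adjusted p = 0.00284). Per kilobase of exon, Btg2 went from 75.1% ± 2.31 of the sum of Btg1 and Btg2 to 56.3% ± 4.96, with no overlap, and the sum itself from 304 ± 23.8 to 243 ± 23.5. The nucleoporin gene Nup50 and the kinase gene Stk38l were most like Btg2 (r = 0.98 for both).

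The 3 genes varied together within the groups as well. Over the 9 libraries, the deviations from the group means correlated with r = 0.79 for Insm1 and Gadd45g, 0.79 for Insm1 and Btg2 and 0.82 for Gadd45g and Btg2, a description over libraries that share their preparation. Without the 2 libraries farthest from the median of the first gene, these values were 0.65, 0.60 and 0.50. Among the knockouts, Insm1 and Btg2 ranked the libraries as Ctnnb1 did, with replicate 5 lowest, then 4, 1 and 3, and replicate 2 highest (Ctnnb1 at 5477, 6572, 7103, 7133 and 7661). This order is not particular to them. Nkx2-1 (3466, 3786, 4713, 4940 and 5304) and Lima1, neither of which passed, had it too. It was picked after the values were seen, and the share of all genes with it was not computed. Gadd45g did not follow that order throughout, since replicate 3 (386) stood just above replicate 2 (385). The proliferation markers summed to 7102, 10225, 11695, 10316 and 14174 in that order. In each of the 19 alternative settings all 3 genes fell, with a log2 fold change between -0.80 and -0.57 for Insm1, -0.70 and -0.53 for Gadd45g and -0.80 and -0.66 for Btg2.

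Promoter windows, 250 bases before to 50 after an annotated start, are described for 7 of the 9 genes. The windows come from the RefSeq table (GRCm38.p6, the same assembly as mm10). They are shown for Gadd45g and Btg2, which fell together, and for Nhlh1 and Nhlh2, which varied together, with each E-box (CANNTG) and, in Btg2, the cyclic AMP response element TGACGTCA in capitals:
Gadd45g (chr13:51846425-51846724, plus strand): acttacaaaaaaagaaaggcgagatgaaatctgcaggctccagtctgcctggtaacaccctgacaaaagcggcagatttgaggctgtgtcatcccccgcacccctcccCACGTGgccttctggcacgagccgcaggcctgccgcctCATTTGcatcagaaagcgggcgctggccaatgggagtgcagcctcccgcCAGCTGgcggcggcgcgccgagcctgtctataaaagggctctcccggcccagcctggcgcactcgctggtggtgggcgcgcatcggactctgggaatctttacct
Btg2 (chr1:134079106-134079405, minus strand): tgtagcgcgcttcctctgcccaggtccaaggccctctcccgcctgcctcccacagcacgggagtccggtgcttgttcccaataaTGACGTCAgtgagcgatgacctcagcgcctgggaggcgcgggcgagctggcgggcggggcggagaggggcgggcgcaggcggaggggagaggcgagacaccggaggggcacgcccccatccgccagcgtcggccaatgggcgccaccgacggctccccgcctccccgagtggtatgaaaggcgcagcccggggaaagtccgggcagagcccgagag
Nhlh1 (chr1:172057547-172057846, minus strand): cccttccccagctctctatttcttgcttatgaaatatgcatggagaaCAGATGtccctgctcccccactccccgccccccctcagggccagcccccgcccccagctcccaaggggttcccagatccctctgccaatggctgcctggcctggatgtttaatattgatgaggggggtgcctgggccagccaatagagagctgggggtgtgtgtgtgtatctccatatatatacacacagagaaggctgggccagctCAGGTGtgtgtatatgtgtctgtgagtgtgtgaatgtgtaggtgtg
Nhlh2 (chr3:102009895-102010194, plus strand): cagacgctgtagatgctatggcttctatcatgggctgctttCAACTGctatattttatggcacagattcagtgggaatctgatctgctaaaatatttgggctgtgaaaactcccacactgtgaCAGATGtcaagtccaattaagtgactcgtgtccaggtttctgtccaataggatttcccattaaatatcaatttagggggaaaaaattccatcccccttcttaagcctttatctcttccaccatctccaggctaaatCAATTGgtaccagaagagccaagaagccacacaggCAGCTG

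The Gadd45g window held 3 matches to CANNTG, of which 1 is CAGCTG and 1 is CACGTG. The Btg2 window held 0, and 1 match to TGACGTCA. The Nhlh1 window held 2 E-boxes, neither of them CAGCTG, and the Nhlh2 window 4, of which 1 is CAGCTG. The 1 window of Cbfa2t2 held no E-box and the 3 of Tcf12 held 1, 2 and 1, and over the 10 windows of the 7 genes, 4 genes had a CAGCTG. No window of Insm1 or Tcf4 was read, so the 7 genes are not a count of what the RefSeq table holds. The motifs were chosen with the sequences in view and read on both strands, which are the same for each of them, and CANNTG includes CAGCTG and CACGTG. Of all 32851 promoter windows of the same length, 72.3% held CANNTG, 16.3% CAGCTG, 7.15% CACGTG and 1.79% TGACGTCA; of the 12639 windows of genes tested here, the shares were 63.0%, 15.4%, 9.69% and 3.13%. These shares are per window, not per gene. A match describes these letters only and shows no binding.

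The ETO family corepressors split, with Cbfa2t3 higher and Cbfa2t2 slightly lower in knockout. Cbfa2t3 (chromosome 8, 122625141 to 122699109, protein-coding) was at 267, 498, 418 and 385 in the controls and at 510.4, 597, 726, 790.3 and 855 in the knockouts. Every knockout was higher than every control, and knockout replicate 1 stood just above control replicate 2. The mean rose from 392 ± 95.8 (SD, n = 4) to 696 ± 141 (SD, n = 5), or 0.84 as a log2 fold change (SE 0.188, adjusted p = 0.00557). It was lowest in control replicate 1, the library with dorsal and choroid plexus transcripts, and without that library the log2 fold change was 0.67. Against control replicates 2 and 3 alone it was 0.58 and did not pass (adjusted p = 0.0527, range over the 19 settings 1.58e-11 to 0.0527). The low end came from the fit with no filter on low values alone, and the next lowest adjusted p was 0.00119, with the replicate block. An annotated antisense gene, Gm10612, overlaps its exons and reached at most 1.01 normalized counts. The G protein gene Gnaq and the RNA editing gene Adar were most like Cbfa2t3 (r = 0.98 for both).

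Of the 2 annotated promoter windows of Cbfa2t3, the one at the gene's outer start held 4 E-boxes, 2 of them CAGCTG, and is shown with E-boxes in capitals; the inner one held 1 E-box and no CAGCTG:
Cbfa2t3 (chr8:122699060-122699359, minus strand): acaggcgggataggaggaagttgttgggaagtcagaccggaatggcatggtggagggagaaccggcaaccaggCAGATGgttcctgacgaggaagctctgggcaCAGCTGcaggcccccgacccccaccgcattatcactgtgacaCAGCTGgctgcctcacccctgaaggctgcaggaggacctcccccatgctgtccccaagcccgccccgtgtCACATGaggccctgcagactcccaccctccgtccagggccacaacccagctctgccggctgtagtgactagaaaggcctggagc

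Cbfa2t2 (chromosome 2, 154436481 to 154539356, protein-coding) was at 453, 437, 521 and 493 in the controls and at 399, 422, 363, 407 and 381 in the knockouts. The groups did not overlap but lay close, with 422 in knockout replicate 2 and 437 in control replicate 2. The mean fell from 476 ± 38.0 to 394 ± 22.9 (log2 fold change -0.27, SE 0.0889, adjusted p = 0.0294). This call was lost in 7 of 19 alternative settings, among them the fit with no filter on low values (adjusted p = 0.120, range over the settings 0.0204 to 0.120) and the fits that left out control replicate 3 (0.0934) or 4 (0.0807) or knockout replicate 1 (0.0505) or 3 (0.0674), while its direction was the same in all 19. The kinase gene Map2k1 and the mitochondrial myosin gene Myo19 were most like it (r = 0.93 and 0.92).

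Runx1t1, the third gene of the family and a marker of differentiating neurons, rose more than either, from 344 ± 87.4 to 892 ± 40.5 (log2 fold change 1.41, SE 0.152, adjusted p = 7.11e-05). Its values were 219 to 412 in control and 855 to 959 in knockout, with no overlap. The annotated exons of the 3 genes are of similar length, between 7.96 and 8.65 kb, so their counts per kilobase can be set side by side. Cbfa2t2 went from 38.6% ± 6.42 to 19.1% ± 2.24 of the summed count per kilobase and Runx1t1 from 29.5% ± 3.65 to 46.7% ± 2.37, neither with overlap, while Cbfa2t3 held 31.9% ± 3.58 and 34.2% ± 4.29 and overlapped. The sum over the family went from 145 ± 22.6 to 240.8 ± 20.2 per kilobase. Among the 9 genes of the ETO paralog and NCoR list, which leaves out Cbfa2t2 and Cbfa2t3, 2 rose, 2 fell and 5 did not pass (median log2 fold change -0.06): beside Runx1t1, Sin3b rose (0.29), and Sin3a (-0.37) and Tbl1x (-0.24), which encode parts of histone deacetylase complexes, fell. Sin3b passed in 14 of 19 alternative settings (adjusted p up to 0.174) and Tbl1x in 9 (up to 0.150), so the Tbl1x call was lost in most of them. Ncor1 and Hdac3, of the core of the NCoR complex, had log2 fold changes of -0.0015 and -0.06 and did not pass.

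**Figure D2:**
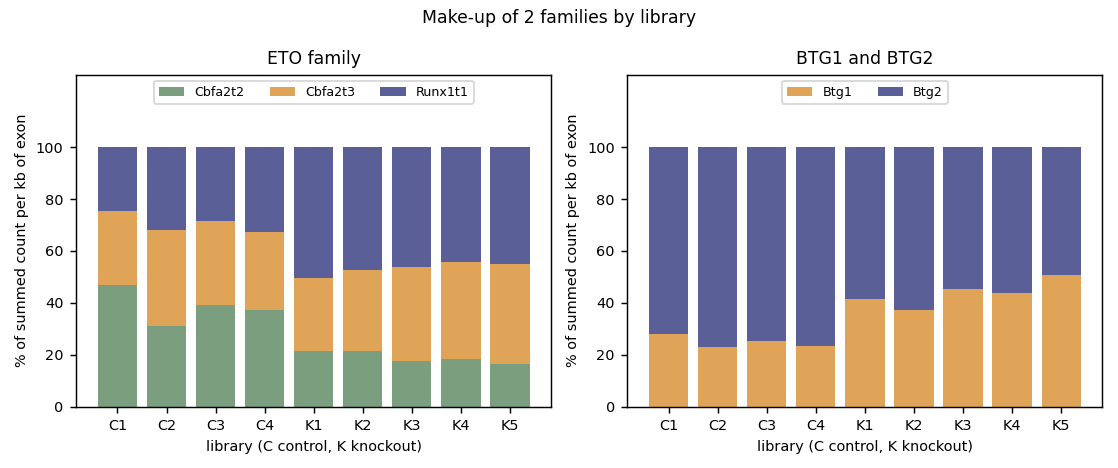
Share of each gene (vertical axis, % of the summed normalized count per kilobase of exon) in the ETO family and in the pair Btg1 and Btg2, by library (horizontal axis; C control, K knockout). Runx1t1 takes 24.7% to 32.6% in control and 44.3% to 50.5% in knockout; Btg1 takes 23.1% to 28.0% and 37.3% to 50.7%.

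Among the E proteins, the common dimer partners of proneural factors, Tcf4 rose, Tcf3 fell and Tcf12 did not pass. Tcf4 (chromosome 18, 69343356 to 69689079, protein-coding) was at 4119.7, 4768, 4644 and 3509 in the controls and at 5357, 4917, 5283, 5573 and 4943 in the knockouts. The knockouts lay above all controls, by a small margin over control replicates 2 and 3 and a wide one over the heterozygous control. The mean rose from 4260.3 ± 575 to 5215 ± 281 (log2 fold change 0.30, SE 0.0973, adjusted p = 0.0269). The value rests in part on control replicate 4: without it the log2 fold change was 0.21 (adjusted p = 0.112). Against control replicates 2 and 3 alone it was 0.15 (adjusted p = 0.247, range over the 19 settings 0.00145, in the fit with no filter, to 0.247). The call held in 12 of 19 alternative settings. It was also lost with neither trend nor robust in limma (0.0586), and without control replicate 1 (0.05004) or knockout replicate 1 (0.0569), 3 (0.0532) or 4 (0.0647). The lysosomal gene Mfsd8 and the adaptor gene Gab2 were most like Tcf4 (r = 0.96 and 0.94).

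Tcf12 (chromosome 9, 71842688 to 72111871, protein-coding) did not pass. It was at 2742, 3339, 3226 and 3046 in the controls and at 3108, 3174, 3368, 3177 and 2932 in the knockouts, with means of 3088 ± 260.4 and 3152 ± 157. Its log2 fold change was 0.03 with a 95% confidence interval of -0.15 to 0.21, which leaves out changes as large as those of the 6 genes that passed. The sign was negative with library quality weights, without control replicate 1 and against control replicates 2 and 3 alone. The chromatin gene Atf7ip and the Golgi gene Cog3 were most like it (r = 0.97 for both). Tcf3, which encodes the E proteins E12 and E47 of cycling progenitors, fell from 3125 ± 144 to 2379.8 ± 203 (log2 fold change -0.40, SE 0.0849, adjusted p = 0.00279). It was 2971 to 3294 in control and 2236 to 2719 in knockout.

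Per kilobase of annotated exon, Tcf3 took 67.0% to 69.9% of the E proteins in control and 57.6% to 63.7% in knockout, Tcf4 11.9% to 14.8% and 17.0% to 21.2%, and Tcf12 16.6% to 18.2% and 19.3% to 21.5%. None of the 3 shares overlapped between the groups. The exon lengths of Tcf4 (27.4 kb) and Tcf12 (15.5 kb) pool many alternative exons, which lowers their counts per kilobase against Tcf3 (4.04 kb). Both the shares and their shifts between the groups thus depend on these lengths and on the fall of Tcf3. The higher share of Tcf12 is no rise of the gene, whose log2 fold change was 0.03 and did not pass.

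In the list of the E protein paralog, Id, Hes and Hey genes, 6 of 11 fell and 1 rose (median log2 fold change -0.39). The Notch effectors Hes5 (-1.05) and Hes1 (-0.96), which repress proneural genes, and Id4 (-0.94), which sequesters E proteins, fell, as did Hes6 (-0.39) and Hey1 (-0.69), while Id3 (1.38) rose; the groups overlapped for Hey1 and Id3. Hes1 passed in 18 of 19 alternative settings (adjusted p up to 0.107). Id1 (0.29), Id2 (0.33), Hey2 (-0.23) and Heyl (-0.21) did not pass. Among 11 measured genes of 15 other neural bHLH factors, Olig2 fell (-0.93, from 1401 ± 157 to 747 ± 180.3), Olig1 rose (0.48, from 77.3 ± 15.5 to 108 ± 20.04) and 9 did not pass (median -0.21). The groups overlapped for Olig1, whose call held in 11 of 19 alternative settings (adjusted p up to 0.305).

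**Figure D3:**
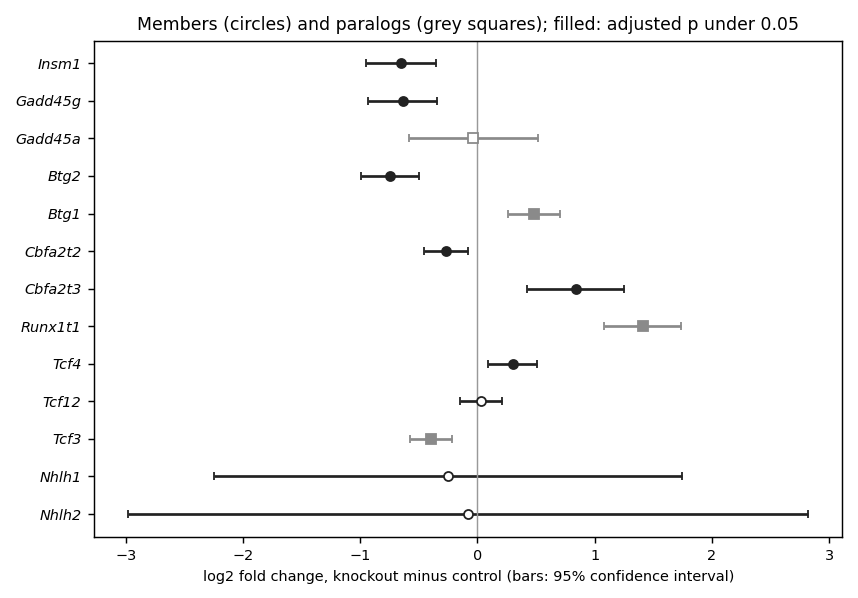
Log2 fold change, knockout minus control (horizontal axis; bars, 95% confidence interval), of the 9 factors (circles) and of paralogs in the same families (grey squares); filled symbols have an adjusted p under 0.05. Btg2 (-0.74) and Btg1 (0.48), Cbfa2t2 (-0.27) and Runx1t1 (1.41), and Tcf3 (-0.40) and Tcf4 (0.30) lie on opposite sides of 0, and the intervals of Nhlh1 and Nhlh2 span it widely.

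Nhlh1 and Nhlh2 were high in a few libraries of both groups. Nhlh1 (chromosome 1, 172052292 to 172057573, protein-coding) was at 98.0, 2.98, 7.03 and 20.9 in the controls and at 7.91, 10.6, 7.02, 14.4 and 36.3 in the knockouts. Nhlh2 (chromosome 3, 102010076 to 102015492, protein-coding) was at 87.9, 1.99, 3.01 and 71.7 in the controls and at 9.89, 7.69, 7.02, 20.1 and 60.5 in the knockouts. Both were highest in control replicate 1, high in control replicate 4 and knockout replicate 5, and lowest in control replicate 2, so that the knockouts lay inside the range of the controls.

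The log2 fold changes were -0.25 for Nhlh1 (95% confidence interval -2.25 to 1.75, adjusted p = 0.850) and -0.08 for Nhlh2 (-2.98 to 2.82, adjusted p = 0.968). The intervals are wide enough to hold large changes either way, and the sign depended on the libraries. Without control replicate 1 the values were 0.62 for Nhlh1 and 0.73 for Nhlh2, without control replicate 4 Nhlh2 was at 0.63, and against control replicates 2 and 3 alone they were 1.27 and 2.19 (adjusted p = 0.147 and 0.0570). On the log2 scale the SD among controls was 2.01 for Nhlh1 and 2.63 for Nhlh2, and only 0.290% and 0.102% of the genes tested had a larger one.

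Transcripts of neighbouring brain regions were high in some of the same libraries. The NHLH pair had r = 0.92 for its deviations from the group means over the 9 libraries (0.90 without control replicates 1 and 2). The axonal adhesion gene Cntn2 was most like both (r = 0.98 with Nhlh1 and 0.96 with Nhlh2), at 870.2, 85.4, 114 and 359 in the controls and 256, 233, 261, 371 and 629.7 in the knockouts, followed by Hivep2 for Nhlh1 (0.96) and the secreted factor gene Bmp7 for Nhlh2 (0.95). The cortical neuron genes Neurod6 and Tbr1 stood at 626 and 266 in control replicate 1 but at 4.98 and 5.98 in control replicate 4, the lowest values of the 9 libraries. In control replicate 4, Lhx9 and Pou4f1, transcription factors of thalamic and midbrain neurons, were at 199 and 137, where controls 1 to 3 had 3.97 to 66.7 and 11.1 to 12.1, and in knockout replicate 5 at 119.9 and 100.8. A list of 10 diencephalon and midbrain genes, chosen after these values were seen, summed to 159.7, 42.7, 52.3 and 663 in the controls and 90.01, 75.0, 115, 476 and 357 in the knockouts. None of its 6 genes above the filter passed, and Barhl2, En1 and En2 were among those at 0 in 1 or more libraries. The part of such transcripts in the Nhlh values was not tested.

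**Figure D4:**
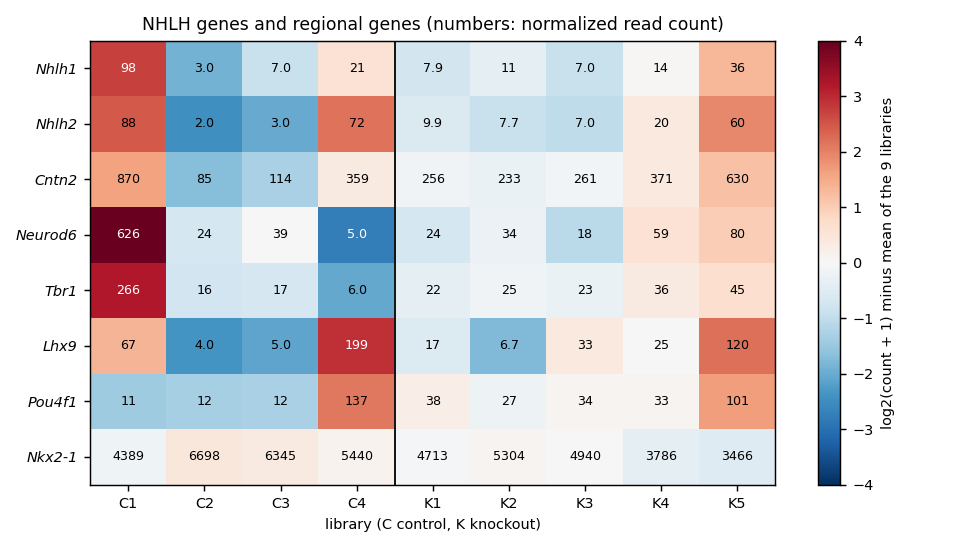
Normalized read counts (numbers in the cells) of Nhlh1, Nhlh2, their most similar gene Cntn2 and regional genes in each library (columns; C control, K knockout); color is log2(count + 1) minus the gene's mean over the 9 libraries. Nhlh1 and Nhlh2 are high in C1, C4 and K5, Neurod6 and Tbr1 are highest in C1 and lowest in C4, and Lhx9 and Pou4f1 are highest in C4.

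LMO proteins bridge bHLH factors such as NHLH to LDB adaptors. Of 6 genes in that list, Lmo3 (0.49) and Ldb1 (0.31) rose, Lmo1 fell (-0.83, from 1449 ± 157 to 831 ± 190.0) and 3 did not pass (median 0.08). Ldb1 passed in 11 of 19 alternative settings (adjusted p up to 0.292, log2 fold change down to 0.16) and Lmo3 in 18 (up to 0.0884).

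Partners of INSM1, GADD45G and BTG2 also gave mixed counts. Of 10 measured genes of the INSM1 paralog and LSD1-CoREST list, 2 rose, among them Phf21a (0.34), 3 fell, Hmg20b (-0.47), Hdac1 (-0.46) and Rcor2 (-0.27), and 5 did not pass (median -0.07). Phf21a, for which the groups overlapped, passed in 16 of 19 alternative settings (adjusted p up to 0.201). Insm2, the paralog of Insm1, was under the filter at 0 to 4.04 normalized counts. Of 7 measured GADD45 paralogs and binding partners, 3 fell, the mitotic kinase gene Cdk1 (-0.85), its cyclin Ccnb1 (-0.77) and the replication clamp gene Pcna (-1.06), 0 rose and 4 did not pass, among them Map3k4 (0.0041) and Cdkn1a (0.10). Of 15 measured BTG/TOB paralogs and CCR4-NOT partners, which shorten the poly(A) tails of mRNAs, Btg1 rose, Pabpc1 (-0.55) and Cnot9 (-0.37) fell and 12 did not pass (median -0.03).

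Among 19 other genes of the subventricular zone and the neurogenic transition, 8 rose, 4 fell and 7 did not pass (median 0.22). Dll1, the Notch ligand of committing progenitors, fell from 678 ± 67.6 to 457 ± 50.4 (-0.57, SE 0.103, adjusted p = 0.000912), as did Mxd3 (-0.67), Ccnd2 (-0.51) and Mfng (-0.36). The factors of GABAergic neuron precursors and young neurons Sp9 (0.65), Dlx5 (0.62), Sox11 (0.57), Dlx1 (0.48), Elavl2 (0.40), Sox4 (0.37) and Dlx6 (0.36) were among those that rose. Elavl2 went from 989.5 ± 57.2 to 1309 ± 94.8 normalized counts. Eomes, the basal progenitor gene of the cortex, was at 571 in control replicate 1, at 3.99 to 39.2 in controls 2 to 4 and at 31.1 to 119.9 in knockout, and did not pass. The groups overlapped for Mfng, Dlx5 and Dlx6. Against control replicates 2 and 3 alone, 4 of the 19 genes rose and 3 fell.

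**Figure D5:**
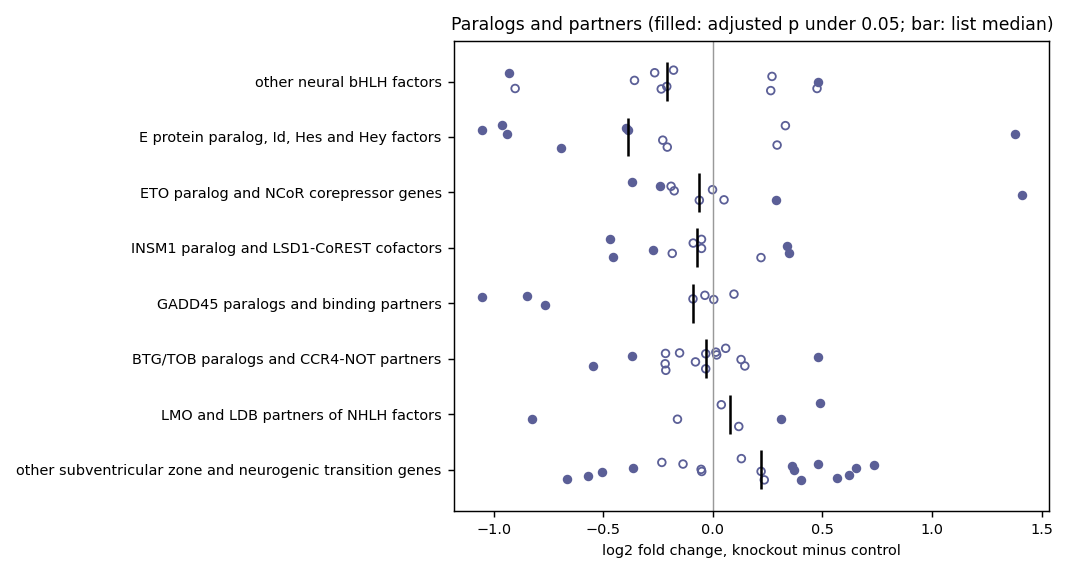
Log2 fold change, knockout minus control (horizontal axis), of each measured gene of 8 lists of paralogs and partners (vertical axis); points are filled at an adjusted p under 0.05 and a bar marks each median. The medians run from -0.39 for the E protein paralog, Id, Hes and Hey factors to 0.22 for other subventricular zone and neurogenic transition genes.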

How the data were processed

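RNA sequencing values of 4 control and 5 knockout MGE libraries were used. Per gene, the deposited signal is normalized counts that the authors scaled by a size factor for each library. This follows from the values, all of which were within 5.09e-06 of a whole multiple of 1 step per library; the steps gave size factors of 0.989 to 1.05 and the read totals. Per the submitters' processing notes, the tools were DESeq2, R 3.4.0, HTSeq 0.9.1 and TopHat2 2.1.1 and the build mm10. Their roles, the annotation release and the strand setting were not given in the sources used here. Without strand, overlapping antisense genes cannot be told apart. Positions and exon lengths (all annotated exons merged) are from GENCODE M21, of the same build; 48058 of 48526 identifiers matched a symbol.

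The test was limma 3.58.1 (trend and robust, R 4.3.3) on log2(normalized count + 1). It was two-sided and covered the 13780 genes whose mean reached 10, with p-values adjusted by Benjamini-Hochberg and called under 0.05. The code was checked on simulated counts in which few genes changed and no library stood apart. That check does not give the error rate in these data. The fold change on this scale understates that of low genes. No count model was fitted. The precision is limited by the number of libraries.

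The members and lists were chosen with earlier results of these data known. The rule named all 9 members, up to 4 called genes with the smallest p from each of 8 lists (up to 2 where none passed), Ctnnb1, and the 2 genes of mean at least 50 whose within-group deviations were most like each member's. Other names were chosen after their values were seen: Id1, Id2, Id3, Hes6, Hey1, Hey2, Heyl, Ncor1, Hdac3, Gadd45a, Gadd45b, Insm2, Rcor2, Map3k4, Cdkn1a, Mxd3, Ccnd2, Mfng, Sp9, Dlx1, Dlx5, Dlx6, Sox4, Eomes and the regional genes. Some genes of the lists are not reported here. The 19 alternatives were a replicate block, library quality weights, neither trend nor robust in limma, scaling by TMM or upper quartile, pseudocounts of 8 and 0.5, a minimum mean of 50 or none, each library left out, and control replicates 2 and 3 alone as controls. The list of diencephalon and midbrain genes was added after values were seen.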

Additional observations from a re-analysis of the deposited data

Results flagged for a closer look

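Both NHLH genes had a knockout library far above the others: in knockout replicate 5, Nhlh1 reached 36.3 normalized counts (7.02 to 14.4 in knockouts 1 to 4) and Nhlh2 60.5 (7.02 to 20.1). That library also had the highest Cntn2 of the knockouts (629.7). Among the partner genes, Id4 was at 262 in knockout replicate 2 against 174 to 194 in the other knockouts, Elavl2 at 1144 in knockout replicate 5 against 1321 to 1376, and Cnot9 at 619 in control replicate 1 against 742 to 756 in the other controls. These 5 cases came from 74 groups of 4 or 5 libraries, and chance gives about 1 in 20.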

How the results depend on the processing

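Insm1, Gadd45g and Btg2 fell in all 19 alternatives. Cbfa2t3 rose in 18, with adjusted p = 0.0527 (range 1.58e-11, in the fit with no filter, to 0.0527) against control replicates 2 and 3 alone. With those controls 1370 genes were higher and 1108 lower over all genes, 0 members rose, and the counts higher and lower were 0 higher for neural bHLH factors, 2 and 3 for the E protein, Id, Hes and Hey list, 1 and 1 for the ETO and NCoR list, 0 higher for the LSD1-CoREST list, 1 lower for GADD45 partners, 0 higher for LMO and LDB genes and 4 higher for subventricular zone genes; fewer samples enter that fit. Without the filter, 3 neural bHLH factors were lower, 2 genes of the E protein list higher and 1 of the ETO list lower. Without trend or robust, 1 member (Cbfa2t3), 0 neural bHLH factors and 1 LMO gene were higher and 1 ETO list gene lower. With library quality weights, 0 neural bHLH factors, 1 LSD1-CoREST gene and 1 LMO gene were higher.

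Equal replicate numbers did not pair the libraries (r of same-numbered deviations -0.12, -0.09, 0.14 and -0.04). With the replicate number as a block, 1829 genes were higher and 1681 lower, 1 gene of the ETO list was higher and 1 lower, and 1 of the LMO list higher. Knockout replicate 5 has no control of its number, so the block fit takes no group difference from it. The block fold changes equal those of the fit without that library (Insm1 -0.57 in both). Of the members, Cbfa2t2 lost its call (adjusted p = 0.101).

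The sign turned for Nhlh1 with library quality weights (0.14), without control replicate 1 (0.62) and with control replicates 2 and 3 only (1.27). For Nhlh2 it turned in the same settings (0.53, 0.73 and 2.19) and without control replicate 4 (0.63) or knockout replicate 1, 2 or 3 (0.06, 0.14 and 0.17). For Tcf12 it turned in the same 3 settings as for Nhlh1 (-0.0013, -0.024 and -0.060). The cause was not tested. Over the fits that leave out 1 library, the log2 fold change ran from -0.93 to 0.62 for Nhlh1, from -0.91 to 0.73 for Nhlh2 and from -0.024 to 0.071 for Tcf12.

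Leaving out 1 library gave 1847 to 2379 genes higher and 1682 to 2416 lower, 1 to 2 members higher and 3 to 4 lower. The ranges, higher and then lower, were 0 to 1 and 1 to 2 for neural bHLH factors, 1 to 2 and 5 to 6 for the E protein list, 1 to 2 and 1 to 2 for the ETO list, 1 to 2 and 2 to 3 for the LSD1-CoREST list, 0 to 0 and 3 to 3 for GADD45 partners, 1 to 1 and 2 to 3 for the BTG list, 1 to 2 and 1 to 1 for the LMO list and 6 to 9 and 3 to 5 for subventricular zone genes. For single named genes, 289 values from these fits kept their sign and side of the threshold, 28 lost the call and 7 turned sign; in the other alternatives these numbers were 325, 27 and 6.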

Other observations

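Tcf12 ran opposite to the NHLH genes across libraries. Its deviations from the group means had r = -0.95 with those of Nhlh1 (Spearman rho -0.87) and -0.86 with those of Nhlh2 over the 9 libraries, and -0.86 and -0.89 without the 2 libraries farthest from the median of the NHLH gene. Tcf12 was lowest in control replicate 1 (2742), where Nhlh1 was highest, and among the knockouts in replicate 5 (2932), where both NHLH genes were highest. These are descriptions over libraries that share their preparation, found among 36 pairs of members.

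Barhl2, a gene of the diencephalon, reached 359 normalized counts in knockout replicate 4, and 0 to 42.8 in the remaining 8 libraries. In that library Nhlh1 and Nhlh2 were at 14.4 and 20.1.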
